A study of Mus musculus with 2 samples.

Results

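The genes described here mark the cells that form bone and the cells that remove it, read in skeletal muscle of newborn mice. They are 10 of the 43346 gene rows of each table, chosen by symbol: 6 osteoblast genes (Runx2, Sp7, Alpl, Ibsp, Spp1 and Dmp1) and 4 osteoclast genes (Acp5, Ctsk, Mmp9 and Ocstamp). The series holds 1 group of B6NCrl mice with no treatment named at postnatal day 0, with 2 libraries. By their descriptions, pup 1 is the first replicate and pup 2 the other, both from pregnancy 1, although the donor entry is identical for both. Neither the muscle nor the sex is recorded. Input was 10 ng of total RNA above 200 nt in size, and the gene rows summed to 40454600 expected counts in pup 1 and 37150684 in pup 2. With 1 library per pup there is no test. Differences between the pups are given with counting intervals, which cover neither the spread between animals nor that between dissections.

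Bone is laid down by osteoblasts, which secrete a collagen matrix and the proteins and enzymes that let it mineralise, and which become osteocytes once buried in it. It is removed by osteoclasts, large cells formed by fusion of cells of the macrophage lineage, which acidify the bone surface and digest the matrix. Osteoblasts steer this fusion through the ligand RANKL, its receptor RANK on osteoclast precursors and the decoy receptor osteoprotegerin. Muscle fibres are not bone cells, and several of these genes are also used elsewhere: osteopontin (Spp1) and tartrate-resistant acid phosphatase (Acp5) by macrophages, cathepsin K (Ctsk) by fibroblasts and Mmp9 by neutrophils. In bulk tissue, fewer cells of a type and less RNA per cell cannot be told apart.

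All 10 genes had at least 4 counts in both pups, and most were scarce for this tissue. Of them, 5 were below 1 TPM (a level corrected for transcript length and library size) in both pups, 4 were at or above it in both, and Ibsp passed it in pup 1 alone. Mmp9 is among the 5, but by the posterior mean TPM, another deposited estimate, it was at 1.05 in pup 1 and 1.17 in pup 2. Only Ctsk was abundant, above 78.2% of the 12495 protein-coding genes with a mean of at least 1 TPM. By mean level the order was Ctsk, Acp5, Spp1, Ibsp, Alpl, Mmp9, Dmp1, Runx2, Sp7 and Ocstamp. The ranges of the pups lay apart between Ctsk and Acp5, between Alpl and Mmp9, between Dmp1 and Runx2 and between Sp7 and Ocstamp, and they overlapped for the other 5 of 9 neighbours. In pup 1 the order after Ctsk was Acp5, Spp1 and Ibsp, while in pup 2 it was Spp1, Alpl and Acp5.

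**Figure D1:**
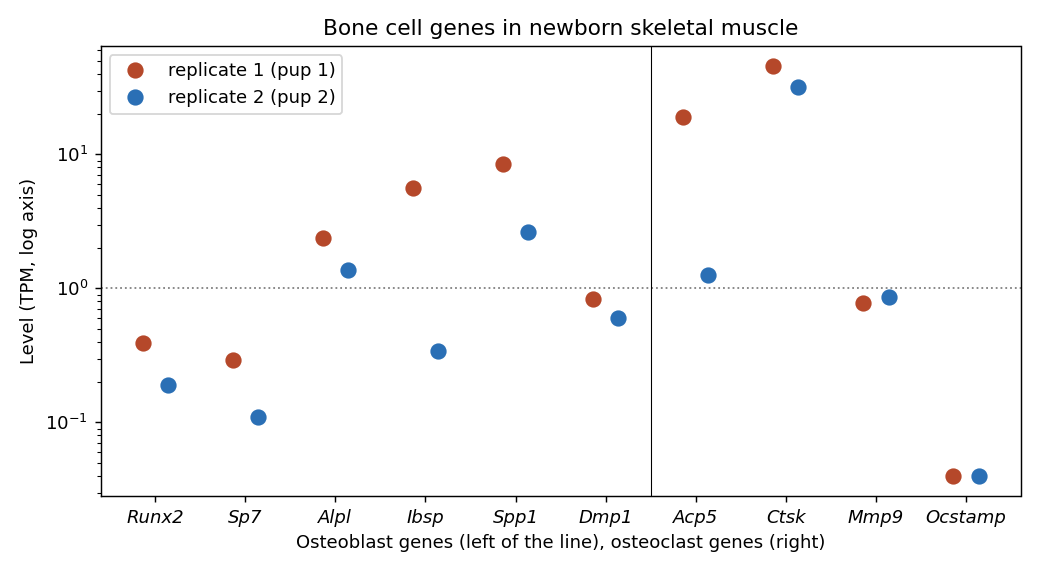
Level of each gene in TPM on a log axis, in pup 1 (left point) and pup 2 (right point) of each pair; the dotted line is at 1 TPM. Ibsp (5.64 against 0.34 TPM) and Acp5 (19.1 against 1.27 TPM) show the widest gaps, and Ocstamp is at 0.04 TPM in both.

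Runx2 and Sp7, the transcription factors that commit cells to the osteoblast fate, were both rare. Runx2 (ENSMUSG00000039153, chromosome 17, 44495987 to 44814797, minus strand) had 59.65 expected counts in pup 1 and 9.17 in pup 2, and 0.39 TPM in pup 1 against 0.19 TPM in pup 2. In counts it was 5.75-fold higher in pup 1 (95% counting interval 2.84 to 13.2). Sp7, or osterix, which acts downstream of Runx2 (ENSMUSG00000060284, chromosome 15, 102356606 to 102367182, minus strand), had 24 counts in pup 1 and 9 in pup 2, a 2.30-fold ratio with an interval of 1.03 to 5.62. Its level was 0.29 TPM in pup 1 and 0.11 TPM in pup 2. Both factors were thus higher in pup 1 by counts, with wide intervals, since few reads stood behind each value.

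Among the enzymes and matrix proteins of osteoblasts, Ibsp and Spp1 differed most between the pups. Ibsp encodes bone sialoprotein, an acidic matrix protein at sites of new mineral (ENSMUSG00000029306, chromosome 5, 104299171 to 104311469, plus strand). It had 332 counts in pup 1 and 19 in pup 2, or 5.64 TPM in pup 1 and 0.34 TPM in pup 2, which is 15.1-fold higher in pup 1 (95% counting interval 9.50 to 25.4). Osteopontin, Spp1, binds mineral and integrins (ENSMUSG00000029304, chromosome 5, 104435118 to 104441050, plus strand). Its 337 counts in pup 1 and 98 in pup 2 gave 8.55 TPM in pup 1 and 2.63 TPM in pup 2, a ratio of 2.97-fold (2.36 to 3.75). Alpl, the alkaline phosphatase that removes the mineral inhibitor pyrophosphate (ENSMUSG00000028766, chromosome 4, 137741733 to 137796384, minus strand), was closer between the pups, with 162 counts and 2.36 TPM in pup 1 and 94 counts and 1.37 TPM in pup 2. That is 1.49-fold (1.15 to 1.94).

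Dmp1, a matrix protein mainly of osteocytes (ENSMUSG00000029307, chromosome 5, 104202613 to 104214102, plus strand), did not differ between the pups beyond counting error. It had 67 counts and 0.84 TPM in pup 1, and 45 counts and 0.60 TPM in pup 2, a ratio of 1.28-fold (95% counting interval 0.868 to 1.92). Dmp1, Ibsp and Spp1 belong to a family of acidic mineral-binding proteins whose genes lie side by side on chromosome 5, in the order Dspp, Dmp1, Ibsp, Mepe and Spp1. The gaps between these genes are 22.5, 85.1, 13.9 and 96.5 kb. The tooth gene Dspp and the osteocyte gene Mepe had 0 counts in both pups, which allows up to 3 counts each per library. Within this stretch the ratios of pup 1 over pup 2 therefore ran from 1.28-fold for Dmp1 to 15.1-fold for Ibsp, with intervals that do not overlap.

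Sequence before the RefSeq start of these 3 neighbours is shown because the genes lie together and differ in ratio, and that of Acp5 because it had the widest gap among the osteoclast genes and starts at several places. RefSeq (GRCm38.p6) windows of 250 bases were found for 7 of the 10 members, 12 windows in all. Capitals mark the Runx-type motif AACCACA (or its reverse complement TGTGGTT), which Runx2 can bind, and the CCAAT box (or ATTGG), searched on both strands. The marked motifs do not overlap. Each run is given 5′ to 3′ on the strand of its gene and leaves out bases that GENCODE places in an exon of that gene.
Dmp1, chr5:104202367-104202612 (+): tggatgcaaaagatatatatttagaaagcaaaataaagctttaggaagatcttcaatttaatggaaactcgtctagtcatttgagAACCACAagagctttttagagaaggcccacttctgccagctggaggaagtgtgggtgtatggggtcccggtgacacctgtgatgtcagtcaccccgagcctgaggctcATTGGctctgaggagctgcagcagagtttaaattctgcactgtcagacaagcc
Ibsp, chr5:104299037-104299170 (+): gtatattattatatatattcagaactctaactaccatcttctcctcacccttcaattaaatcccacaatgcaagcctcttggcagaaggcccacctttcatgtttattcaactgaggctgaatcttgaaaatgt
Spp1, chr5:104434861-104435110 (+): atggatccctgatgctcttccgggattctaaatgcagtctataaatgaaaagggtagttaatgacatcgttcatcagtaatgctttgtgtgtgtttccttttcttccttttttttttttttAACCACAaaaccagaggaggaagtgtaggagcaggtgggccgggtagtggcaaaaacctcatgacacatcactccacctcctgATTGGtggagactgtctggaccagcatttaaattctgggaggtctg
Acp5 before Acp5-201, chr9:22131866-22132115 (-): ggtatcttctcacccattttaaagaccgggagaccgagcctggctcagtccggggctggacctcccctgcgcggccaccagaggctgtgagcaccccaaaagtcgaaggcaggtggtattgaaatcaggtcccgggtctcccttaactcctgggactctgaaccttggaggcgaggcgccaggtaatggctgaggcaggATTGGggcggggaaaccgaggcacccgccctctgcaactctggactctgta
Acp5 before Acp5-202, chr9:22130609-22130848 (-): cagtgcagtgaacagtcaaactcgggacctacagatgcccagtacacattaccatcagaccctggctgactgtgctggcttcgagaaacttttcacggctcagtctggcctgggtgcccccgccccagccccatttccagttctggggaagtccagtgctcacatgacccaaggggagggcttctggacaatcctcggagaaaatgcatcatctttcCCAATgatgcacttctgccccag
The Runx-type motif begins 165 bases before the start in this window of Dmp1 and 129 bases before it in Spp1. It is also found 81 bases before the RefSeq start of Runx2, among bases that GENCODE places in an exon of Runx2. The motif in these letters is not in the windows of Ibsp, Acp5, Ctsk or Alpl. It occurs in 4.4% of the 32851 RefSeq windows of the same length, and the CCAAT box occurs in 33.8% of them. The box reads ATTGG in Dmp1, Ibsp, Spp1 and the Acp5-201 window, where it begins 57, 54, 46 and 51 bases before the RefSeq start. Between 41 and 60 bases before the start, a range chosen after these positions were seen, 2.66% of all windows have ATTGG. The RefSeq start of Ibsp lies 116 bases inside the GENCODE transcript that was counted, so its box is not in the run shown. That of the Acp5-201 window lies 50 bases before the first base of Acp5-201, so its box is farther from the transcript that was counted. The likeness in position therefore holds for RefSeq starts only. These matches describe letters, and no binding was measured.

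The osteoclast genes did not go together. Acp5, the acid phosphatase by which osteoclasts are usually stained (ENSMUSG00000001348, chromosome 9, 22126727 to 22135711, minus strand), had 737 counts in pup 1 and 46 in pup 2. Its level was 19.1 TPM in pup 1 and 1.27 TPM in pup 2, 13.8-fold higher in pup 1 by counts (95% counting interval 10.3 to 19.1). Ctsk, the protease that cuts bone collagen (ENSMUSG00000028111, chromosome 3, 95499256 to 95509362, plus strand), had 1877 counts and 45.4 TPM in pup 1 and 1254 counts and 32.1 TPM in pup 2, a ratio of only 1.29-fold (1.20 to 1.39). Mmp9, a gelatinase (ENSMUSG00000017737, chromosome 2, 164940780 to 164955850, plus strand), had 49 counts and 0.78 TPM in pup 1 and 59 counts and 0.86 TPM in pup 2. The interval of its ratio, 0.717 (0.480 to 1.06), holds 1. Ocstamp, a membrane protein needed for osteoclast fusion (ENSMUSG00000027670, chromosome 2, 165393760 to 165400405, minus strand), had 4 counts and 0.04 TPM in each pup, with an interval of 0.161 to 4.63. So Acp5 and Ctsk were higher in pup 1 beyond counting error, by very unequal amounts, and Mmp9 and Ocstamp were not.

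Counted together, 5 of the 10 genes (Runx2, Sp7, Ibsp, Spp1 and Acp5) were at least 2-fold higher in pup 1, and 0 were at least 2-fold higher in pup 2. Among the 17004 genes with at least 10 mean counts, 4.95% were at least 2-fold higher in pup 1 and 1.39% in pup 2. Among the 11218 of these with fewer than 1000 mean counts, where most members lie, the shares were 6.9% and 2.09%. The members were proposed with these ratios in view, so nothing is read from their excess. By TPM with 0.1 added the count in pup 1 was 3, since Runx2 at 0.76 and Sp7 at 0.89 on the log2 scale fell short of 2-fold. Ocstamp is the member with fewer than 10 mean counts. The counting interval lay above a ratio of 1 for 7 members, below it for 0, and held it for Dmp1, Mmp9 and Ocstamp. The share of all genes past this rule was not worked out, so nothing is read from these counts of members. By the bounds that the authors deposited for each TPM, the pups lay apart, with pup 1 higher, for Ibsp, Spp1, Acp5 and Ctsk, which is 4 of 10. By that rule 27.2% of the 17004 genes were higher in pup 1 and 4.33% in pup 2.

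**Figure D2:**
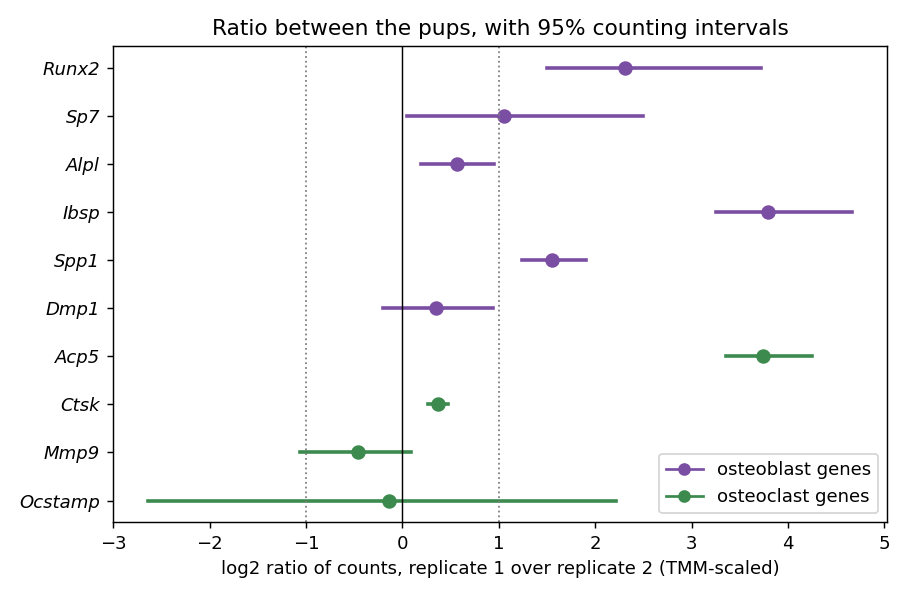
Log2 ratio of counts, pup 1 over pup 2, scaled with TMM and with a prior count of 2 (points), and 95% counting intervals of the plain ratio (bars); dotted lines mark a 2-fold difference each way. The points of Ibsp at 3.79 and Acp5 at 3.74 are the highest, though the bar of Runx2 overlaps theirs, and the bar of Ocstamp spans both dotted lines.

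Set against each other, the osteoblast genes were the lower set by summed and median level in both pups. Which set differed more between the pups depended on the summary. The summed level of the 6 osteoblast genes was 18.1 TPM in pup 1 and 5.24 TPM in pup 2, and that of the 4 osteoclast genes 65.3 TPM in pup 1 and 34.2 TPM in pup 2. Ctsk made up 69.5% of the osteoclast sum in pup 1 and 93.7% in pup 2. Without Ctsk the sum was 19.9 TPM in pup 1 and 2.17 TPM in pup 2. The osteoblast sum was then the higher in pup 2. With Ctsk or Acp5 left out, Mmp9 is the median osteoclast gene, at 0.78 TPM in pup 1 and 0.86 TPM in pup 2. The median TPM of the osteoblast genes, 1.6 in pup 1 and 0.47 in pup 2, is then the higher in pup 1. The median log2(TPM + 0.1) of the osteoblast genes minus that of the osteoclast genes was -1.43 in pup 1 and -1.05 in pup 2 (mean -1.24 ± 0.27, SD, n = 2). On that log2 scale the median level itself was 0.60 in pup 1 and -0.85 in pup 2 for the osteoblast genes, and 2.04 in pup 1 and 0.20 in pup 2 for the osteoclast genes, the wider gap. Taken gene by gene instead, the median log2 ratio of counts, pup 1 over pup 2, was 1.30 for the osteoblast genes and 0.11 for the osteoclast genes, a difference of 1.19, against 0.01 for all 17004 genes. By TPM with 0.1 added that difference was 0.57. All 6 osteoblast genes were higher in pup 1, against 2 of 4 osteoclast genes, and 52% of the 17004 genes were. These differences rest on few genes, and no test of them was made, since genes are not replicates.

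The ratio of Runx2 depended on the measure. By counts it was 5.75-fold higher in pup 1, but by TPM only 2.05-fold, because the estimated effective length of the gene was 5169 nt in pup 1 and 1739 nt in pup 2. Runx2 is known to use a distal and an inner promoter. Most of its counts were assigned to Runx2-203, a transcript of 6463 nt whose first base, 44736648, lies at the inner one, with 58.38 counts in pup 1 and 7.21 in pup 2. In pup 2, 41.3% of the TPM of Runx2 went to Runx2-208, a short retained-intron model with 1 count in each pup. By posterior means, Runx2-203 held 21.1% of the TPM in pup 1 and 3.28% in pup 2. The use of the promoters cannot be read from so few reads. Over all 17004 genes the median log2 ratio of pup 1 over pup 2 was 0.15 by TPM, 0.10 by counts divided by their total and 0.01 by TMM-scaled counts. The antisense gene Runx2os1 shares 519 nt of exon with Runx2 and had 1.35 counts in pup 1 and 3.83 in pup 2; whether strand was used in counting is not given in the sources used here.

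**Figure D3:**
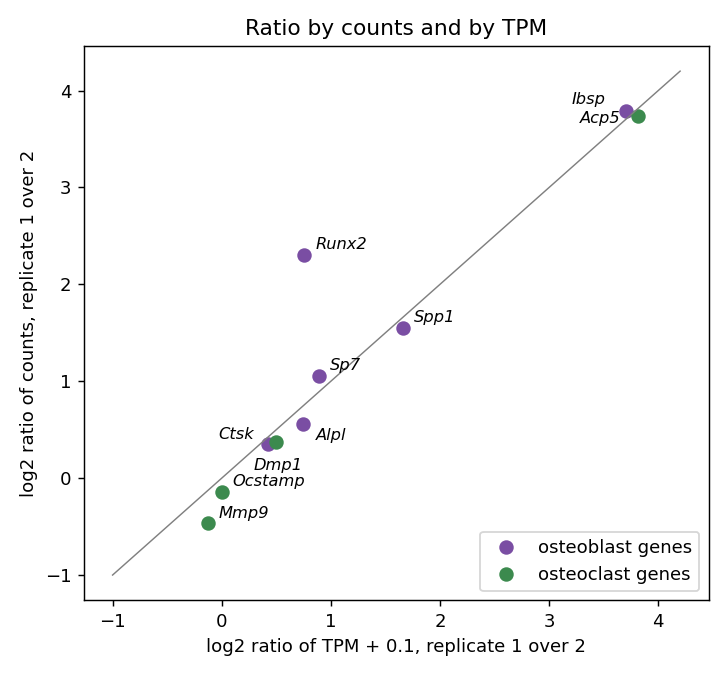
Log2 ratio of pup 1 over pup 2 by TMM-scaled counts (vertical axis) against that by TPM with 0.1 added (horizontal axis), for the 10 genes; the line marks equal values. Runx2 lies farthest from the line, at 2.30 by counts and 0.76 by TPM.

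Of the 5 members with more than 1 transcript, the leading transcript by TPM was the same in both pups for Alpl, Spp1 and Mmp9. Alpl-201 held 94.3% of Alpl in pup 1 and 100% in pup 2. Spp1-201 held 87.8% of Spp1 in pup 1 and 83.1% in pup 2, and Mmp9-201 held 52.7% of Mmp9 in pup 1 and 67.6% in pup 2. By posterior means these shares were all lower. They were then 57.95% and 48.75% in pups 1 and 2 for Alpl-201, 73.7% and 51.1% for Spp1-201, and 38.6% and 49% for Mmp9-201. In Acp5 the forms differ in their start. Acp5-201 took 521.21 counts in pup 1 and 22.83 in pup 2, and Acp5-202, which begins at position 22130598, took 180.37 in pup 1 and 23.17 in pup 2. Acp5-201 thus led in pup 1 with 70.0% of the TPM. In pup 2 these forms were nearly level at 48.6% for Acp5-201 and 51.4% for Acp5-202, on 46 counts in all. By posterior means Acp5-201 led in both pups, with 68.3% in pup 1 and 46.2% in pup 2. Acp5-202 then held 25.8% in pup 1 and 34.4% in pup 2. The remaining form, Acp5-203, took 35.42 counts in pup 1 and 0 in pup 2. Each form had more counts in pup 1.

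Other genes of bone formation gave mixed ratios. In a list of 25, 12 were at or above 1 TPM in pup 1 and 11 in pup 2, 4 were at least 2-fold higher in pup 1 and 1 in pup 2, and the median log2 ratio was 0.45. The highest were genes that fibroblasts share: Sparc at 2578 TPM in pup 1 and 1795 TPM in pup 2, and the collagen I chains Col1a1 at 1899 TPM in pup 1 and 1228 TPM in pup 2 and Col1a2 at 1015.5 TPM in pup 1 and 717.7 TPM in pup 2. Next were the cadherin Cdh11 (17.8 and 15 TPM in pups 1 and 2), the parathyroid hormone receptor Pth1r (13.3 and 7.97 TPM) and the pyrophosphate exporter Ank (7.17 and 7.02 TPM). Among genes with at least 10 mean counts, the largest ratios towards pup 1 were those of the osteoblast transcription factor Dlx5, with 23 counts in pup 1 and 2 in pup 2, the Wnt inhibitor Wif1 (2.63-fold, 95% counting interval 2.09 to 3.35) and the sphingomyelinase Smpd3 (2.24-fold, 1.73 to 2.94). The fourth past 2-fold was Bglap, on very few counts. Phex, an osteocyte protease, went the other way, with 26 counts in pup 1 and 61 in pup 2. Osteocalcin, the most specific product of mature osteoblasts, was nearly absent: Bglap had 2.54 counts in pup 1 and 0 in pup 2, Bglap2 1.46 and 1, and Bglap3 2 and 0. These neighbouring copies are so alike that reads may be split between them. Ifitm5, a bone-restricted membrane protein, had 38 counts in pup 1 and 18 in pup 2.

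Other osteoclast genes were on the whole level between the pups. In a list of 20, 15 were at or above 1 TPM in each pup, 0 were at least 2-fold higher in pup 1, 2 were at least 2-fold higher in pup 2, and the median log2 ratio was 0.01. The highest were shared with macrophages or with many cells: the adaptor Tyrobp at 76.7 TPM in pup 1 and 55.5 TPM in pup 2, the proton pump subunit Tcirg1 at 15.6 TPM in pup 1 and 13.3 TPM in pup 2, and the receptor Csf1r at 16.1 TPM in pup 1 and 12.3 TPM in pup 2. They were followed by the chloride transporter Clcn7 (8.43 and 7.76 TPM in pups 1 and 2), carbonic anhydrase Car2 (7.64 and 7.93 TPM) and the transcription factor Nfatc1 (7.89 and 7.59 TPM). The genes at or near 0, picked out after their values were seen, were the fusion gene Dcstamp with 0 counts in pup 1 and 1 in pup 2, Atp6v0d2 with 5 in each, and Siglec15 with 0 in both. Others of the list were not low, among them the integrin Itgb3 at 3.41 TPM in pup 1 and 3.37 TPM in pup 2. The receptor Oscar had 5 counts in pup 1 and 25 in pup 2, and the calcitonin receptor Calcr, which muscle satellite cells also express, had 110 counts in pup 1 and 192 in pup 2. Trem2 (1.37-fold, 95% counting interval 1.03 to 1.85) and Snx10 (1.27-fold, 1.09 to 1.48) were the largest ratios towards pup 1. Of 8 genes taken as defining markers, Acp5, Ctsk and Calcr were at or above 1 TPM in both pups, and the other 5 (Mmp9, Ocstamp, Dcstamp, Atp6v0d2 and Oscar) were below it in both. By posterior mean TPM, however, Mmp9 was above it, at 1.05 in pup 1 and 1.17 in pup 2. Whether osteoclasts were present was not tested.

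The signals that link both cell types were measured as well. RANKL (Tnfsf11) had 16 counts in pup 1 and 17 in pup 2, and its receptor RANK (Tnfrsf11a) 43 in pup 1 and 34 in pup 2. The decoy receptor osteoprotegerin (Tnfrsf11b) was the most abundant of them, at 4.18 TPM in pup 1 and 2.72 TPM in pup 2, 1.40-fold higher in pup 1 (95% counting interval 1.18 to 1.68). RANKL stood at 0.25 TPM in pup 1 and 0.28 TPM in pup 2. RANK, with more counts in pup 1, was lower there by TPM, at 0.43 against 0.56 TPM in pup 2. The counting intervals of both ratios hold 1 (0.384 to 1.71 for RANKL and 0.680 to 1.76 for RANK).

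Markers of several other tissues were higher in pup 1, and their part in the bone ratios was not tested. Of 16 cartilage genes, 14 were at least 2-fold higher in pup 1 and 0 in pup 2; their summed level was 93.2 TPM in pup 1 and 14.4 TPM in pup 2, and none was at 0 in both. Col2a1, the main collagen of cartilage, had 3435 counts in pup 1 and 37 in pup 2. Of 5 genes of hypertrophic chondrocytes, the cartilage cells next to forming bone, which also make Ibsp and Spp1, 4 were at least 2-fold higher in pup 1, with sums of 17.6 TPM in pup 1 and 8.12 TPM in pup 2. Most of that sum was Pth1r, which the osteoblast list also holds. Col10a1, their defining collagen, had 299 counts in pup 1 and 9 in pup 2, a 28.7-fold ratio (95% counting interval 14.9 to 63.3), beside 15.1-fold for Ibsp; Panx3 had 25 counts in pup 1 and 1 in pup 2. The tooth list was empty, with at most 1 count for any of its 5 genes in either pup and 0 in both for 3 of them, among which is Dspp.

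**Figure D4:**
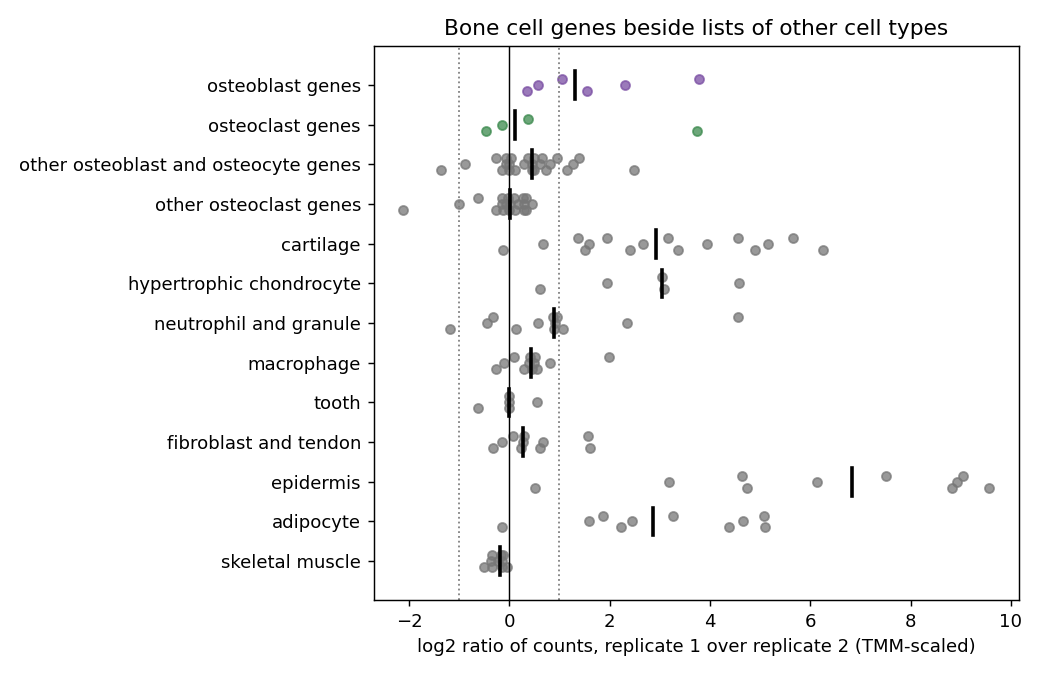
Log2 ratio of counts, pup 1 over pup 2, for each gene (points) of the osteoblast and osteoclast genes and of 11 other lists, with the median of each list (black bar) and dotted lines at a 2-fold difference. The median is 1.30 for the osteoblast genes, 2.92 for cartilage, 6.82 for epidermis and -0.19 for skeletal muscle.

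Blood and connective tissue cells that can use the same genes were looked at through lists of their markers. Whether these cells were the source of any member was not tested. Of 12 macrophage genes, 11 were at or above 1 TPM in each pup and 1, Lgals3 (44.4 TPM in pup 1 and 11 TPM in pup 2), was at least 2-fold higher in pup 1, with sums of 457 TPM in pup 1 and 315 TPM in pup 2 and a median log2 ratio of 0.43. Of these, C1qc was at 71.4 TPM in pup 1 and 36.9 TPM in pup 2, C1qb at 98.8 TPM in pup 1 and 68.4 TPM in pup 2, and Lyz2 at 112 TPM in pup 1 and 110 TPM in pup 2, while Acp5 differed 13.8-fold. Whether macrophages account for part of the Acp5 ratio was not tested. Of 12 neutrophil genes, 7 were at or above 1 TPM in pup 1 and 5 in pup 2. Of the 12, 3 (Camp, with 157 counts in pup 1 and 4 in pup 2, Elane and Retnlg) were at least 2-fold higher in pup 1 and 1 (Lcn2) in pup 2. Sums were 73.8 TPM in pup 1 and 47.4 TPM in pup 2. S100a8 was at 32 TPM in pup 1 and 19.6 TPM in pup 2, S100a9 at 14.6 TPM in pup 1 and 7.02 TPM in pup 2, and Lcn2 at 7.96 TPM in pup 1 and 16.6 TPM in pup 2, beside 0.78 and 0.86 TPM for Mmp9 in pups 1 and 2. Fibroblast and tendon genes, which could share Ctsk, had a median log2 ratio of 0.28 over 10 genes, beside 0.37 for Ctsk. Their ratios ran from -0.32 to 1.61, and 2 of the 10 were at least 2-fold higher in pup 1 and 0 in pup 2. The 10 skin genes (sums of 673 TPM in pup 1 and 23.6 TPM in pup 2) and the 10 adipocyte genes (5142 TPM in pup 1 and 915 TPM in pup 2) had medians of 6.82 and 2.86. Skeletal muscle markers, which check the labelled tissue, were abundant in both pups, with Acta1 at 49664 TPM in pup 1 and 57562 TPM in pup 2. All 10 were slightly lower in pup 1 by TMM-scaled counts (median -0.19), though by TPM Tnnt3 and Des were slightly higher there. Over only 2 libraries, the genes of all lists whose ratio lay nearest to the members' median of 0.81 were Ifitm5 at 0.80, C1qc at 0.82 and the neutrophil gene Ltf at 0.88.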

How the data were processed

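Total RNA of 2 libraries was quantified by the authors on mm10 with the GENCODE M4 annotation from transcriptome alignments, per the file headers and the notes beside the tables; neither aligner nor quantifier is named in the sources used here. The authors deposited expected counts (estimated reads after sharing among transcripts), TPM (divided by effective length), and, as a percent, each transcript's share of its gene's TPM. The deposited bounds of an interval around each TPM are treated as a score, since their level is not stated; for Runx2 and Alpl a TPM lies outside its own bounds. The 26345 rows that name no gene (spike-ins and numbered rows) held 0.00109% of counts in replicate 1 and 0.00120% in replicate 2 and were left out.

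Names and positions are from GENCODE M21, matched by ID without version (42462 of 43346). Expected counts were rounded and scaled with TMM (edgeR 4.0.16, R 4.3.3); the log2 ratios of replicate 1 over replicate 2 add a prior count of 2 before CPM are formed, and folds with exact Clopper-Pearson intervals at 95% use plain scaled counts. The intervals cover counting error only, and they take each rounded count as exact and each read as a separate molecule. Amplified reads that carry no molecular identifier do not each stand for a separate molecule, so the intervals may be too narrow. DESeq2 1.42.0 gave other size factors. No test between groups exists, and although the labels name separate pups, they give both the same donor entry. Where a gene had 0 counts, up to 3 are allowed.

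The members and the 13 lists were chosen with earlier results of these data known. The text names the members, the leading genes of each list by mean TPM (bone lists also by ratio), the osteocalcin and RANKL genes and the genes nearest in ratio. Mepe, Dcstamp, Atp6v0d2, Siglec15, Itgb3, Lgals3, Camp, Elane, Retnlg, Des and Tnnt3 were named after their values were seen. Calculations used scipy 1.17.1, pandas 2.3.3 and numpy 2.4.6 under Python 3.11.15, and plots matplotlib 3.10.9.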

Additional observations from a re-analysis of the deposited data

How the results depend on the processing

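The count of 5 members at least 2-fold higher in replicate 1 was 5 under other scalings of counts, posterior mean counts, a prior count of 0.5, a fold of 1.5 and a minimum of 10 mean counts. It was 3 with TPM and a pseudocount of 0.1 or 1, with a fold of 3, and with a minimum of 100 mean counts, which keeps 5 members; it was 4 by intervals that do not overlap, a rule added after seeing the data. The count of 0 in replicate 2 stayed 0 in these settings. The level of osteoblast minus osteoclast genes (-1.24) was -0.88 with a pseudocount of 1, -0.81 in CPM, which are not divided by length, -2.48 without Mmp9 and -1.94 with the other bone lists added. Leaving out a replicate gave -1.43 to -1.05. The difference of 1.19 in the ratio between replicates was 0.57 and 0.12 with TPM and pseudocounts of 0.1 and 1, and on the count scale 0.70 without Spp1 and Runx2, 0.73 as a mean over members and 0.93 without Mmp9. By TPM with 0.1 added the Runx2 ratio was 0.76; the larger pseudocount pulls genes below 1 TPM towards 0. The sign of both differences was the same in every setting run. Leaving out Ctsk or Acp5 was not among these settings. Without either gene, Mmp9 is the median osteoclast gene by level, at 0.78 TPM in replicate 1 and 0.86 TPM in replicate 2. The osteoblast median was 1.6 TPM in replicate 1 and 0.47 TPM in replicate 2. The sign of the level difference therefore does not hold in replicate 1 without either gene. For the ratio the median osteoclast gene is then Ocstamp at -0.14, below the osteoblast median of 1.30, so that sign holds. The pups shared their leading transcript for 4 of 5 members by expected counts or posterior means, instead of 3. Posterior mean TPM gave Runx2 0.84 instead of 0.29, Alpl 3.17 instead of 1.87 and Mmp9 1.11 instead of 0.82.

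Depth limits the rarest members most: Ocstamp rests on 4 counts per library, and Sp7 and Runx2 on 9 in replicate 2. A ratio between replicates cannot be made without either replicate. No paired analysis was possible because the series holds 1 group.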
